A study of Mus musculus with 3 samples.

Results

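Interferon-stimulated genes were examined in dissociated mouse cochleae by 10x single-cell RNA sequencing, as a set of 8 genes matched by symbol among the 32285 genes of the count tables: *Ifit1*, *Ifit3*, *Isg15*, *Rsad2*, *Irf7*, *Bst2*, *Ifitm3* and *Ifi27*. The set was selected on the level of *Ifit1* in outer hair cells (OHCs), which was higher at P28 (28 days after birth) than at P14 (14 days), so that contrast is described here without a test. The study had 1 library at P14 and 2 at P28, called P28 replicates 1 and 2. Each library pooled 14 cochleae of 7 C57/B6 mice, with no treatment given, so the spread between single mice could not be seen, and the P14 library had no replicate. The cochleae were freed from bone, loosened briefly in collagenase and triturated, and most of the epithelium came from the upper basal to apical turns.

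Interferons are secreted when cells sense viral or other foreign nucleic acid. Type I interferons bind the receptor Ifnar1/Ifnar2 and type II interferon the receptor Ifngr1/Ifngr2, Janus kinases are then activated at the receptor, and transcription factors that include Irf9 bind the interferon-stimulated response element (ISRE) in the promoters of many genes. Many of these genes also have a basal level without infection, which is known to be marked in macrophages. Within the set, Ifit1 binds foreign RNA and blocks its translation, and Ifit3 belongs to the same IFIT family. Isg15 is a ubiquitin-like modifier, Rsad2 (viperin) is an enzyme that makes an antiviral nucleotide, and Irf7 is a transcription factor that amplifies the type I response. Bst2 (tetherin) holds budding viruses at the cell surface, Ifitm3 blocks the fusion of viruses in endosomes, and Ifi27 is a small hydrophobic protein.

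The promoters show how closely the members resemble each other at the level of sequence. Of the 8 members, 7 had a promoter in the RefSeq table for build GRCm38.p6, which holds 250 bases before and 50 after each annotated start, and *Ifi27* had no entry. The ISRE core was searched as GAAANNGAAA, or TTTCNNTTTC on the other strand, with overlapping matches counted. It was found in 6 of the 7 promoters, beside 3.44% of all 32851 promoters of the same length and 22 of the 52 promoters (42.3%) of other interferon-stimulated genes of the pathway list described below. A match describes these letters and does not show binding. Shown are the 160 bases before the annotated start of *Ifit1* (chr19:34640729-34640888, plus strand), of its chromosomal neighbour *Ifit3* (chr19:34583369-34583528, plus strand), of *Isg15* (chr4:156200819-156200978, minus strand) and of *Irf7* (chr7:141266425-141266584, minus strand), which was the only one of the 7 without a match. For *Ifitm3* only the run that spans both matches is shown (chr7:141010716-141010742, minus strand), since it lies after the annotated start. Each reads 5′ to 3′ along the gene, and capitals mark the ISRE core.
Ifit1: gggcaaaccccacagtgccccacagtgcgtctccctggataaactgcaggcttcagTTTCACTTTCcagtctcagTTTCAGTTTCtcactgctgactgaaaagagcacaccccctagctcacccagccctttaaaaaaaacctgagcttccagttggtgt
Ifit3: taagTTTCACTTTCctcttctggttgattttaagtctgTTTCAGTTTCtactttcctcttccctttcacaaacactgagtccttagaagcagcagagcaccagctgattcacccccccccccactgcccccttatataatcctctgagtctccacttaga
Isg15: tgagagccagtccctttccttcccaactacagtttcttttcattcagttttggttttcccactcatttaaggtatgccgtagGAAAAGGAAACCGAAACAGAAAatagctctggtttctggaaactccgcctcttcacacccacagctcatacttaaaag
Irf7: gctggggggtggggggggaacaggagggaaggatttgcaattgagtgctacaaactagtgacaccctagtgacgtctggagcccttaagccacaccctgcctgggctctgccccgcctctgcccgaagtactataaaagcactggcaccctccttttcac
Ifitm3: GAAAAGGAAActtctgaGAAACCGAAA

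*Ifit1* and *Ifit3* each carried 2 cores, and the same pair of sequences, TTTCACTTTC followed by TTTCAGTTTC, stood in both promoters. The 2 cores of *Ifit1* began 104 and 85 bases before the start and those of *Ifit3* 156 and 122 bases before it. *Isg15* carried 3 overlapping cores between 78 and 66 bases before the start, *Bst2* had 2 overlapping ones at 130 and 124 bases, and *Rsad2* had 1 at 120 bases. In GENCODE M21, an annotation of GRCm38, *Ifit1* (ENSMUSG00000034459) lies at chr19:34640871-34650009 and *Ifit3* at chr19:34583531-34588731, both on the plus strand. *Irf7* (chr7:141262706-141266481) and *Ifitm3* (chr7:141009586-141010770) lie on the minus strand of chromosome 7, and *Isg15* (chr4:156199424-156200818), *Rsad2* (chr12:26442746-26456452) and *Bst2* (chr8:71534255-71537456) are on the minus strand too. *Ifi27* (chr12:103434211-103440239) is on the plus strand. Among windows of 91 bases in the last 500 bases of their transcripts, only those of *Ifit3* recurred in another gene, 26 of 410 (6.34%) in *Ifit3b*, so a small part of its counts is uncertain.

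Values are unique molecular identifier (UMI) counts from the 3′ ends of polyadenylated RNA, where 1 UMI stands for 1 captured molecule, so they carry no correction for transcript length and the levels of different genes are not ranked against each other. The 3 libraries held 10125255, 35485894 and 37530956 UMIs in 2513, 11948 and 18196 barcodes. Barcodes with 200 to 6000 genes and at most 15% mitochondrial UMIs were kept, which left 1662, 5651 and 7065 cells, 14378 in all, with a median of 2477, 2421 and 2037 UMIs per cell and a median mitochondrial share of 6.24%, 10.0% and 10.8%. The libraries shared between 4 and 10 of the cell barcodes kept. Cells were clustered without the 8 members and without the pathway list, and clusters were named from marker genes. All 6 OHC markers were present in OHC-like cells, with a summed level of 37325, 23612 and 23597 CPM (UMIs scaled to the same total for every class and library) at P14 and in P28 replicates 1 and 2, while the 9 macrophage markers summed to 7.99, 26.8 and 27.0 CPM there. Other immune lists were uneven in OHC-like cells. The 6 B cell markers summed to 2119, 6.28 and 35.7 CPM (4, 3 and 1 of them at 0). The granulocyte markers summed to 1.07, 0.419 and 702 CPM (7, 7 and 2 of them at 0). In the macrophage-like class the macrophage markers summed to 16819, 13551 and 8098 CPM and 8 granulocyte markers to 18076, 2659 and 25626 CPM. Clusters that could not be named held 1102 cells. All 95% intervals are exact (Poisson for CPM, binomial for shares of cells) and cover counting error only.

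*Ifit1* had its highest level in OHC-like cells in each library, among the classes with 20 or more cells in every library of an age (12 at P14, 15 at P28). It had 111 UMIs in 277 OHC-like cells at P14, 566 UMIs in 359 cells of P28 replicate 1 and 301 UMIs in 282 cells of P28 replicate 2. These were 59.2 CPM (95% interval 48.7 to 71.2), 237 CPM (218 to 257) and 219 CPM (195 to 246). The interval at P14 lay below those of both P28 libraries, which overlapped each other, and the mean at P28 was 228 ± 12.4 CPM (SD, n = 2), 3.86-fold or 1.95 on the log2 scale above P14. The median log2 ratio over all genes of the class with 10 UMIs or more was 0.13. It was taken with 10 CPM added to both levels, unlike the ratio of *Ifit1*, so the 2 are not on the same scale. The difference in *Ifit1* chose the set, and no test between the ages was made.

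The higher level of *Ifit1* at P28 was spread over many OHC-like cells. A UMI of *Ifit1* was found in 26.4% of the OHC-like cells at P14 (73 cells) and in 69.4% (249 cells) and 53.9% (152 cells) at P28, at a median depth of 6510, 5237 and 3751 UMIs per cell. After each cell was thinned to 1000 UMIs, which kept 260, 357 and 282 cells, the shares were 6.15% (3.56 to 9.80), 22.7% (18.5 to 27.4) and 19.5% (15.0 to 24.6). At P28, 23 and 6 cells held 5 UMIs or more, 123 and 74 held 2 to 4, and the cell with the most held 1.77% and 2.66% of the class's UMIs. At P14, 46 of the 73 positive cells held 1 UMI, 26 held 2 to 4 and 1 held 5 or more. Red blood cell-like cells, planned as a measure of free RNA, gave 2.00%, 6.02% and 1.61% as sequenced at 4982, 3667 and 2586 UMIs per cell. Red blood cell markers took 375593, 707541 and 639226 CPM of these cells, which leaves less depth for other RNA. Of their cells with *Ifit1*, 1 of 1, 4 of 5 and 1 of 3 also had a UMI of *Ifit3*, *Isg15*, *Rsad2* or *Irf7*. Among those without *Ifit1* it was 46.9%, 32.1% and 26.8%. So few cells with *Ifit1* cannot show a difference, and the part of free RNA in these shares was not tested.

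**Figure D1:**
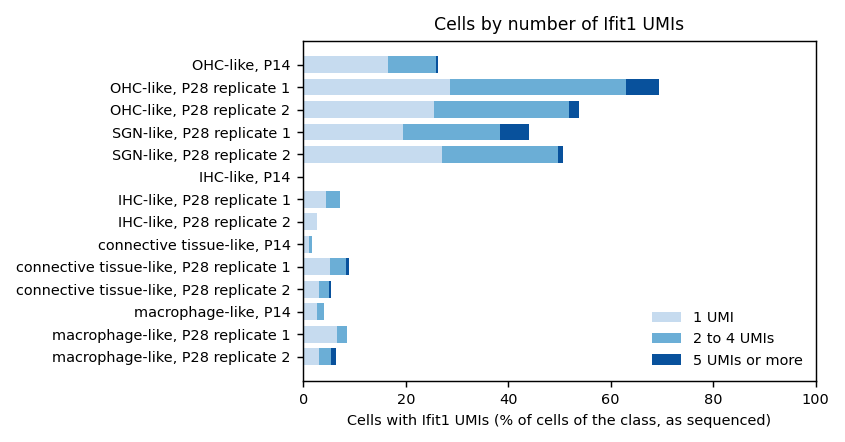
Share of the cells of a class (x axis, %) with 1, 2 to 4, or 5 or more UMIs of *Ifit1*, as sequenced, for each library. OHC-like cells reached 26.4% at P14 and 69.4% and 53.9% at P28, SGN-like cells 44.01% and 50.7%, and macrophage-like, connective tissue-like and IHC-like cells stayed below 10%.

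*Ifit1* varied among the clusters of OHC-like cells at both ages. At P14 it stood at 45.0 CPM in the cluster of 189 cells and at 96.5 CPM in the cluster of 51 cells, and it had 0 UMIs in the cluster of 37 cells with a median of 1129 UMIs per cell, which was nucleus-like (*Malat1* took 15.5% and ribosomal protein genes 3.68% of its UMIs). At P28 the larger cluster held 220 and 182 CPM and the smaller one 278 and 290 CPM in replicates 1 and 2. The smaller cluster was also the deeper one, with 11420 and 8447 UMIs per cell against 5081 and 3515. Each of these P28 values was above each of the P14 clusters. Without the nucleus-like clusters, an alternative chosen after seeing the data, the log2 ratio of P28 to P14 was 1.90.

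Spiral ganglion neuron (SGN)-like cells came next in the order of *Ifit1*, and they were found only at P28. They held 448 UMIs (131 CPM, 119 to 144) in replicate 1 and 267 UMIs (82.4 CPM, 72.8 to 92.9) in replicate 2, below both OHC-like values. In replicate 2 this was also below macrophage-like cells, so the order of these 2 classes is not settled. A UMI was found in 44.01% and 50.7% of the SGN-like cells, and in 10.1% and 8.84% after thinning to 1000 UMIs. OHC markers stood in SGN-like cells at 0.530% and 0.438% of their level in OHC-like cells, whereas *Ifit1* stood at 55.2% and 37.6% of its level there.

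Inner hair cell (IHC)-like cells, the other sensory cells of the cochlea, held 0, 14 and 2 UMIs of *Ifit1*, or 0, 14.4 and 3.36 CPM. At P14 a count of 0 in this class allows up to 11.9 CPM, below the level in OHC-like cells of that library. The values at P28 lay among the lowest of the 15 classes, beside Schwann and satellite glial cell-like cells at 6.88 and 10.6 CPM. OHC markers stood in IHC-like cells at 1.98% and 2.42% of their OHC-like level at P28 and *Ifit1* at 6.09% and 1.53%.

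From SGN-like cells down, neighbouring classes could not be told apart in *Ifit1* at P28, since their libraries overlapped. Connective tissue-like cells held 10.8, 45.2 and 38.5 CPM, and Reissner's membrane (RM)-like cells 19.0, 39.8 and 33.8 CPM. Macrophage-like cells held 11.4, 35.9 and 122 CPM, and in P28 replicate 2 a single cell held 46.9% of these UMIs, without which the level was 64.7 CPM. Marginal cell-like cells, 21 cells found in P28 replicate 2 only, held 338 CPM, of which 1 cell gave 25 of the 31 UMIs.

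**Figure D2:**
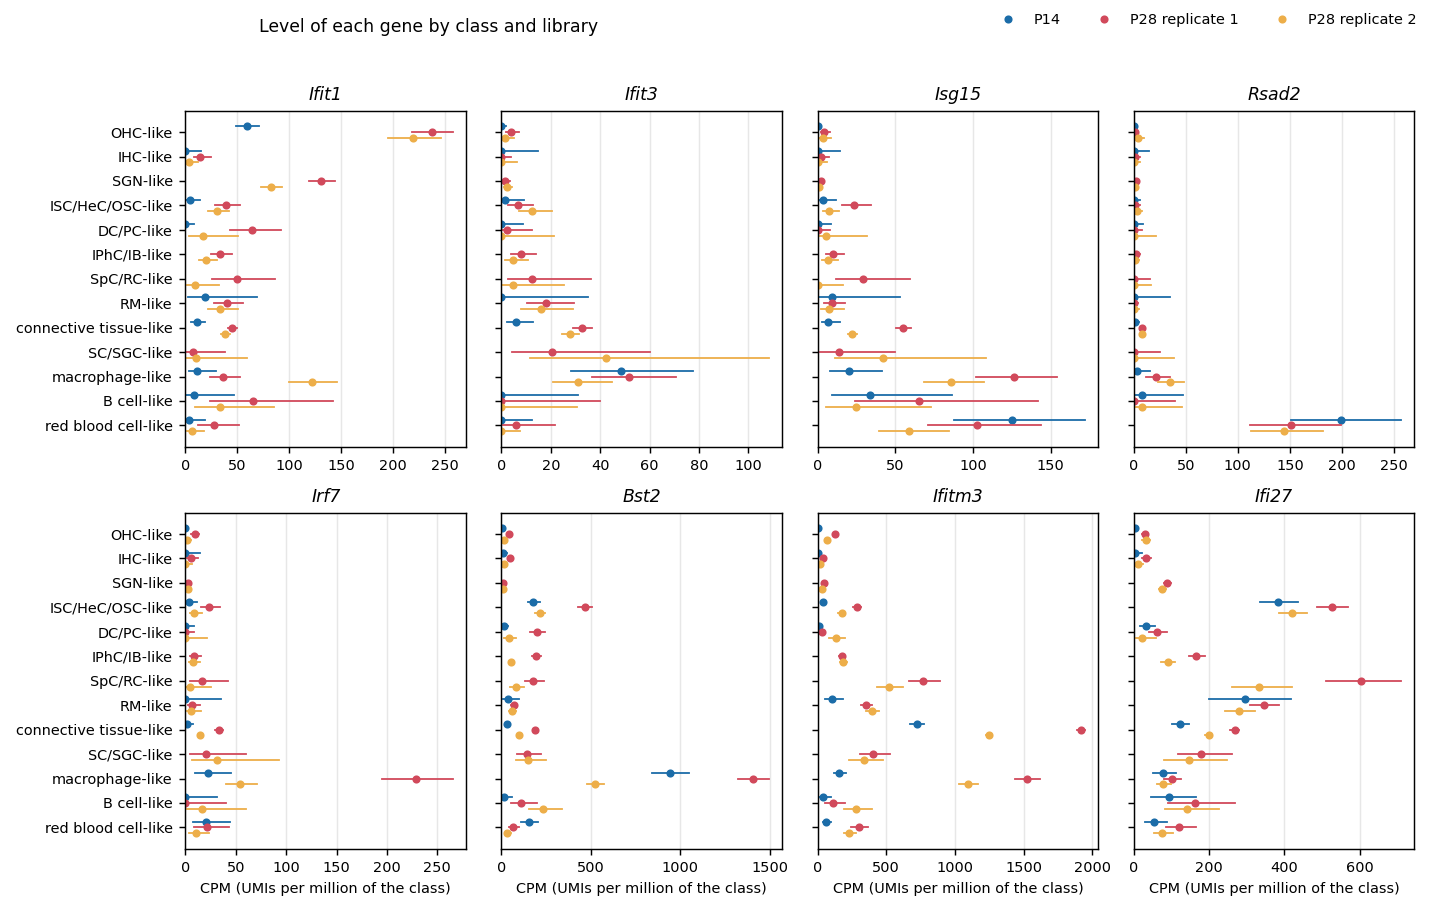
Level of each of the 8 genes (x axis, CPM; the axes differ) in 13 classes of cells, with 1 point per library and exact 95% Poisson intervals. *Ifit1* was highest in OHC-like cells, at 59.2, 237 and 219 CPM, *Irf7* and *Bst2* in macrophage-like cells, *Rsad2* in red blood cell-like cells and *Ifitm3* at P28 in connective tissue-like and macrophage-like cells.

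The other 7 members were low in OHC-like cells. *Ifit3*, of the same family as *Ifit1* and with the same 2 cores in its promoter, had 0, 9 and 2 UMIs at P14 and in P28 replicates 1 and 2 (3.77 and 1.46 CPM at P28). *Isg15* had 0, 10 and 5 UMIs (4.19 and 3.65 CPM at P28), and *Rsad2* had 0, 3 and 6 UMIs, all 6 of them in 1 cell. *Irf7* had 0, 22 and 2 UMIs, of which 11 of the 22 were in 1 cell. At P14 a count of 0 in this class allows up to 1.60 CPM, so a level like those of *Ifit3* and *Rsad2* at P28 was near what could be detected.

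*Bst2*, *Ifitm3* and *Ifi27* were better counted in OHC-like cells, and all 3 were low at P14. *Bst2* had 1, 99 and 21 UMIs (0.533, 41.5 and 15.3 CPM), *Ifitm3* had 7, 305 and 96 UMIs (3.73, 128 and 70.0 CPM) and *Ifi27* had 7, 70 and 44 UMIs (3.73, 29.3 and 32.1 CPM). In P28 replicate 1 a single cell gave 83 of the 305 UMIs of *Ifitm3*, and a single cell gave 29 of the 99 of *Bst2*. Markers of connective tissue in OHC-like cells were also higher at P28 than at P14. The 17 genes of that list summed to 307, 1253 and 1685 CPM there (3, 1 and 1 of them at 0). This is 1.60%, 10.1% and 13.5% of their level in connective tissue-like cells. Between the P28 libraries the list was higher in replicate 2, while *Ifitm3* and *Bst2* were higher in replicate 1 and *Ifi27* differed little. *Ifitm3* in OHC-like cells stood at 0.516%, 6.67% and 5.62% of its connective tissue-like level. Red blood cell markers in OHC-like cells were higher at P28 too, at 238, 1291 and 7306 CPM. The part of such RNA in the counts of these 3 genes was not tested.

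Against all other cells, 6 of the 7 members besides *Ifit1* were lower in OHC-like cells (edgeR quasi-likelihood test on UMIs summed per class and library, 3 sums of each kind, with library as a block, Benjamini-Hochberg adjustment over all genes). Of the 13842 genes tested, 31.6% were called lower in the same comparison and 25.9% higher. On the log2 scale *Ifi27* stood at -3.57 ± 0.68 (SE; adjusted p = 0.012), *Ifitm3* at -3.47 ± 0.50 (adjusted p = 0.00618), *Bst2* at -3.44 ± 0.84 (adjusted p = 0.0229) and *Isg15* at -3.14 ± 0.52 (adjusted p = 0.00844). *Ifit3* had -2.78 ± 0.51 (adjusted p = 0.0107) and *Irf7* -2.04 ± 0.51 (adjusted p = 0.0254), and *Rsad2*, at -2.32 ± 0.75, did not pass (adjusted p = 0.0506). All 7 were below the other cells in each of the 3 libraries. *Rsad2* did pass with DESeq2 (adjusted p = 0.0192). Without P28 replicate 1 only 2 of the 7 passed and without P28 replicate 2 only 3.

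OHC-like and IHC-like cells were also compared directly, where 3 members besides *Ifit1*, which chose the set and is not tested here, had enough UMIs. *Ifitm3* was higher in OHC-like cells by 1.94 ± 0.24 on the log2 scale (edgeR, adjusted p = 9.4e-05), in each of the 3 libraries, where 17.6% of the 10249 genes tested were higher and 18.4% lower. Its levels in IHC-like cells were 0, 38.2 and 20.2 CPM. At P14 the 0 allows up to 11.9 CPM, above the 3.73 CPM in OHC-like cells, so that library does not settle the direction. In P28 replicate 1 a single OHC-like cell gave a large part of its UMIs, as stated above. *Bst2*, at -0.05 ± 0.34 (adjusted p = 0.921), and *Ifi27*, at 0.51 ± 0.35 (adjusted p = 0.299), did not pass. The connective tissue markers stood at 4.26% and 7.62% of their own level in IHC-like cells at P28, lower than in OHC-like cells, and their part in the difference of *Ifitm3* was not tested. With the upper limits that the study used, 3000 genes and 15000 UMIs per cell, *Ifitm3* turned to -0.63 (adjusted p = 0.485).

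**Figure D3:**
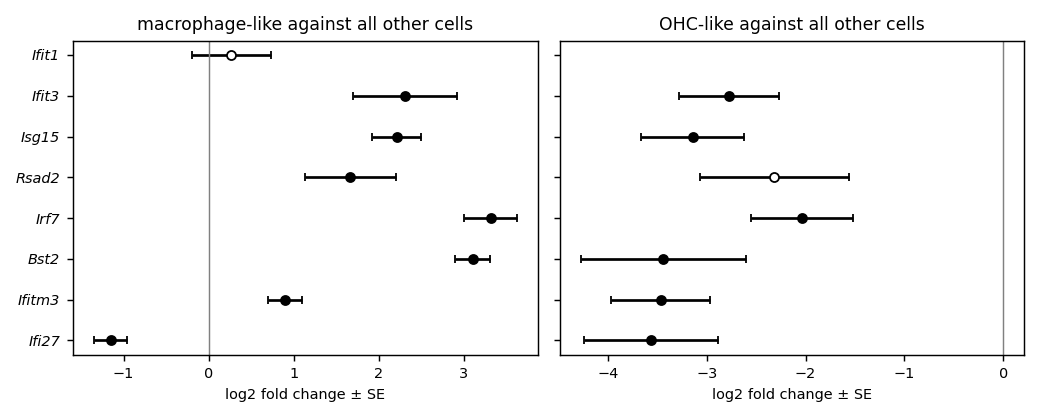
Log2 fold change (x axis) with its standard error (bars) of the members in macrophage-like cells (left, 8 genes) and OHC-like cells (right, 7 genes, without *Ifit1*) against all other cells, from edgeR over 3 libraries; filled points passed an adjusted p of 0.05. In macrophage-like cells 6 genes were higher and *Ifi27* was lower, and in OHC-like cells 6 of 7 were lower.

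Macrophage-like cells held most members above the rest of the cochlea. Of the 8 members, 6 were higher than in all other cells, where 15% of the 14279 genes tested were higher, and 1 was lower, where 17.6% were lower. *Irf7*, with 22.8, 228 and 53.8 CPM at P14 and in P28 replicates 1 and 2, was higher by 3.32 ± 0.31 on the log2 scale (edgeR, adjusted p = 0.000204). *Bst2*, with 942, 1407 and 523 CPM, was higher by 3.11 ± 0.20 (adjusted p = 4.11e-05). Both genes were above the other cells in each library, and both varied more between the P28 libraries than their counting intervals allow.

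*Ifit3*, at 48.5, 51.8 and 31.2 CPM in macrophage-like cells, was 2.31 ± 0.61 above the other cells on the log2 scale (edgeR, adjusted p = 0.0237). *Isg15*, at 19.99, 126 and 86.0 CPM, was higher by 2.21 ± 0.29 (adjusted p = 0.00102). *Rsad2*, at 2.86, 21.3 and 34.4 CPM, was higher by 1.67 ± 0.54 (adjusted p = 0.0475), in 2 of 3 libraries. *Ifitm3*, at 157, 1525 and 1098 CPM, was higher by 0.89 ± 0.20 (adjusted p = 0.0119). *Ifi27* was the exception, with 77.1, 100.9 and 78.5 CPM, at -1.15 ± 0.19 on the log2 scale (adjusted p = 0.0035) and lower in each library. *Ifit1* did not pass, at 0.27 ± 0.46 (adjusted p = 0.69), and its other cells include the OHC-like cells.

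Without P28 replicate 1, 4 of the 8 members passed in macrophage-like cells (*Ifit3*, *Rsad2* and *Ifitm3* did not), and without P28 replicate 2, 5 of 8 (*Rsad2* and *Ifitm3* did not). *Ifit1* passed without P14 (0.59, adjusted p = 0.015) and turned to -0.78 without P28 replicate 2 (adjusted p = 0.207). The granulocyte markers in this class were lowest in P28 replicate 1 and highest in P28 replicate 2. Of the 8 members, *Ifit1* and *Rsad2* were highest in P28 replicate 2 and the others in P28 replicate 1, and the part of granulocyte RNA was not tested.

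The 7 other named classes gave 56 pairs of class and gene, of which 6 were called higher and 24 lower. Over all genes tested, 1.05% to 18.5% were higher and 1.65% to 28.1% lower, depending on the class. Of the lower calls 4 were of *Ifit1*, against other cells that include the OHC-like cells on which the set was selected. In red blood cell-like cells *Rsad2* and *Isg15* were higher, where 1.05% of 13673 genes were (1.65% were lower). *Rsad2* stood at 199, 151 and 144 CPM there, 7.12 ± 0.64 above the other cells on the log2 scale (edgeR, adjusted p = 4.6e-08), with a UMI in 40.0%, 25.3% and 20.97% of the cells. *Isg15* stood at 125, 103 and 59.0 CPM and was higher by 3.91 ± 0.52 (adjusted p = 3.37e-05). *Rsad2* in red blood cell-like cells was above its level in every other class shown, in each library. Haemoglobin and other red blood cell markers took most UMIs of these cells at P28, and the TMM scaling shifted this comparison by 1.37 on the log2 scale, but both calls held without it.

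Connective tissue-like cells, the largest class, held most of the *Ifitm3* molecules, with 739, 16073 and 11965 UMIs (723, 1916 and 1246 CPM) and a UMI in 65.3%, 87.3% and 81.3% of the cells. *Ifitm3* was 3.16 ± 0.42 above the other cells on the log2 scale (edgeR, adjusted p = 0.00399) and *Ifit3*, at 5.87, 32.5 and 27.8 CPM, was 1.72 ± 0.24 above them (adjusted p = 0.0045), where 18.5% of genes were higher. *Ifit1* was lower here, with the OHC-like cells among the other cells, where 28.1% were lower. *Ifit3* did not pass without P28 replicate 1 (1.47, adjusted p = 0.0828).

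The epithelial cells split by gene. In the inner sulcus, Hensen's and outer sulcus cell (ISC/HeC/OSC)-like class *Ifi27* (384, 527 and 421 CPM) was higher by 1.27 ± 0.18 (edgeR, adjusted p = 0.0016) and *Bst2* (179, 466 and 215 CPM) by 1.03 ± 0.22 (adjusted p = 0.0109), where 10.8% of genes were higher, and *Ifit1*, *Rsad2* and *Ifitm3* were lower, where 18.5% were. *Ifit1* in this class, and in the RM-like cells below, was compared with other cells that include the OHC-like cells on which the set was selected. *Bst2* did not pass without P28 replicate 1 (0.83) or without P28 replicate 2 (0.87). In RM-like cells 6 members, *Ifit1* among them, were lower (21.4% of genes were), with *Ifi27* (295, 346 and 281 CPM) and *Ifit3* not passing. In Deiters' and pillar cell-like cells 5 members were lower (8.09% of genes were, and 4.81% were higher). In IHC-like cells all 8 were lower (22% of genes were), *Ifit1* again against other cells that include the OHC-like cells. In B cell-like cells, with 65, 27 and 37 cells, only *Ifitm3* was lower (16.2% of genes were, and 6.95% were higher).

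Among the 15 classes ranked at P28, *Ifi27* was highest in epithelial classes and in 1 cluster without a name, besides the ISC/HeC/OSC-like class above. Intermediate cell-like cells, with 4 cells in P28 replicate 1, were not among the 15. In P28 replicate 2 *Ifi27* was higher in them than in any of the 15 classes (level given below). It reached 604 and 334 CPM in spindle and root cell-like cells at P28, where *Ifitm3* stood at 769 and 519 CPM, and 618, 624 and 339 CPM in a cluster led by *Tdrd12* and *Ucma*, where *Bst2* stood at 259, 554 and 203 CPM and *Ifitm3* at 36.3, 276 and 115 CPM. In SGN-like cells *Ifi27* stood at 89.7 and 75.6 CPM, near *Ifit1* in the same cells, while *Bst2* (9.94 and 7.72 CPM), *Ifit3* (1.46 and 2.16 CPM) and *Isg15* (2.05 and 0.926 CPM) were near 0.

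Whether single cells with *Ifit1* also held its fellow members differed by class. Of the 249 and 152 OHC-like cells with *Ifit1* at P28, 11 (4.42%, 2.23 to 7.77) and 5 (3.29%, 1.08 to 7.51) also had a UMI of *Ifit3*, *Isg15*, *Rsad2* or *Irf7*, beside 3.64% and 2.31% of the OHC-like cells without *Ifit1*. Of the 73 such cells at P14, 0 had one (95% interval 0 to 4.93%), as did 0 of the 204 without *Ifit1*. The 4 genes had 0 UMIs in all OHC-like cells at P14, so that library cannot show whether they go with *Ifit1*. SGN-like cells gave 2.04% and 4.67% with *Ifit1* and 2.67% and 4.79% without it. In these neurons and in OHC-like cells the intervals with and without *Ifit1* overlapped in each P28 library.

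In connective tissue-like and macrophage-like cells the shares were far apart. Of the 204 and 177 connective tissue-like cells with *Ifit1* at P28, 68.1% and 57.1% also had a UMI of at least 1 of the 4 genes, beside 13.9% and 7.84% of those without. In macrophage-like cells it was 20 of 22 (90.9%) and 15 of 22 (68.2%), beside 34.3% and 15.5%. The intervals with and without *Ifit1* did not overlap in either class and in either P28 library. The median depth of connective tissue-like cells was 1985 and 1713 UMIs and that of macrophage-like cells 2246 and 2127, against 5237 and 3751 in OHC-like cells. In these 4 classes, cells with *Ifit1* at P28 were deeper than those without, by their medians. Their medians were 4196 and 2231 UMIs against 1926 and 1693 in connective tissue-like cells and 3111 and 3459 against 2197 and 2039 in macrophage-like cells. In OHC-like cells they were 5423 and 4625 against 4955 and 3409 and in SGN-like cells 18278 and 14305 against 2136 and 8187. The part of depth in these shares was not tested.

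**Figure D4:**
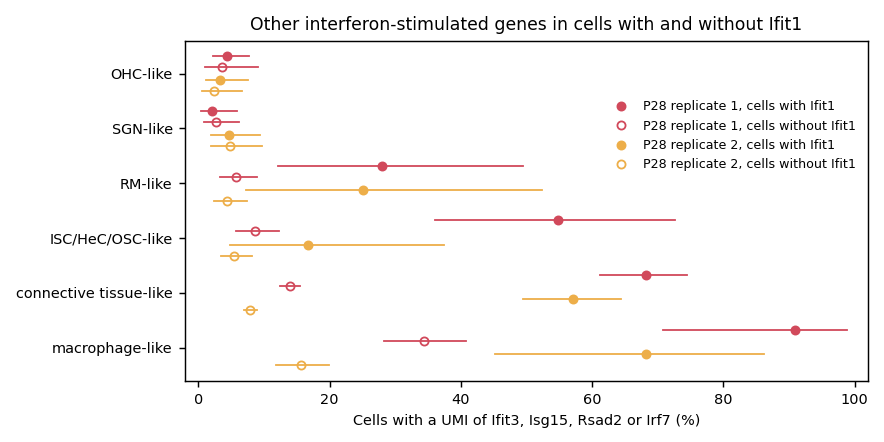
Share of cells (x axis, %) with a UMI of *Ifit3*, *Isg15*, *Rsad2* or *Irf7* among cells with *Ifit1* (filled) and without it (open) in 6 classes at P28, with exact 95% binomial intervals. The shares overlapped in OHC-like cells (4.42% and 3.29% with *Ifit1*) and SGN-like cells and lay apart in connective tissue-like (68.1% and 57.1%) and macrophage-like cells (90.9% and 68.2%).

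Likeness was also measured between whole sums. Over 39 sums of 1 class in 1 library, the Pearson r of log2(CPM + 10) with *Ifit1* was 0.20 for *Ifitm3* and *Irf7*, 0.16 for *Ifit3*, 0.15 for *Ifi27*, 0.12 for *Rsad2* and *Bst2* and 0.09 for *Isg15*. Of the 12726 genes compared, *Gcdh* (0.66), *Pfkfb2* (0.65), *Caprin2* (0.65), *Prkaa2* (0.64) and *Acad10* (0.64) were most like it. Among the genes most like *Irf7* were *Uba7* (0.84), *Bst2* (0.76), *Ccl12* (0.75) and *Prag1* (0.74), with *Isg15* and *Ifit3* at 0.70. *Ifitm3* was most like *Ifitm2* (0.88), *Ier3* (0.87), *Pid1* (0.85), *Ifitm1* (0.85) and *Cldn11* (0.85). The sums share libraries and include those of OHC-like cells, whose *Ifit1* levels chose the set, so these values are a description.

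Across ages, a gene was taken as past the limit in a class where both P28 libraries were at least 2-fold above or below P14 and no P28 interval overlapped that of P14. With 1 library at P14 this is a description and not a test. The groups differ in depth, mitochondrial share, free RNA and the clusters within a class as well as in age, which cannot be told apart. Of 72 pairs of member and class in 9 named classes, 57 had 10 UMIs or more. Past the limit were 16 pairs with the higher level at P28 and 1 with the lower level. Over all genes of a class, 0.949% to 6.99% were past it in the higher and 2.04% to 21.7% in the lower direction. The 16 pairs include *Ifit1* in OHC-like cells, the contrast that chose the set. By gene, *Ifitm3* was past the limit in 5 of 9 classes, *Ifit1* in 3 (OHC-like cells among them), *Isg15* in 2 and *Bst2* in 2 higher and 1 lower.

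Connective tissue-like cells had the most members past the limit, 6 of 8, beside 3.04% of the 14607 genes of that class (4.34% were past it in the lower direction). *Irf7* went from 1.96 CPM (2 UMIs) to 33.1 and 14.5 CPM, ratios of 16.9 (4.64 to 140) and 7.39 (2.01 to 61.6). *Isg15* went from 6.85 to 55.2 and 22.4 CPM (2.50 on the log2 scale), *Ifit3* from 5.87 to 32.5 and 27.8 CPM (2.36), *Bst2* from 32.3 to 186 and 98.4 CPM (2.14) and *Ifit1* from 10.8 to 45.2 and 38.5 CPM (1.96). *Rsad2* went from 1 UMI (0.979 CPM) to 7.63 and 8.33 CPM, ratios of 7.79 (1.35 to 313) and 8.51 (1.48 to 340). *Ifitm3* (1.13) and *Ifi27* (0.93) were higher at P28 but under the limit in replicate 2. The class did not hold the same clusters at both ages. At P14 it held a cluster of 92 cells with *Abcc9*, *Phex* and *Cemip* among its leading genes. A P28 cluster of 479 cells with these leading genes was unnamed and left out. Clusters with *Otor* and *Emilin2* among their leading genes had 62 cells at P14 and 1346 and 796 at P28. The part of this mix in the ratios was not tested.

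In OHC-like cells 4 members were past the limit, all higher at P28, beside 6.99% of the 12224 genes of that class (3.02% lower), and 1 of the 4 is *Ifit1*, which chose the set. *Ifitm3* was higher at P28 by 4.73 and *Ifi27* by 3.04 on the log2 scale. *Bst2*, with 1 UMI at P14, gave ratios of 77.8 (13.6 to 3103) and 28.7 (4.62 to 1188). Most of its P28 UMIs lay in the larger cluster of OHC-like cells. The smaller P28 cluster held 5 and 2 UMIs (7.16 CPM, 2.32 to 16.7, and 4.21 CPM, 0.510 to 15.2). These intervals overlapped that of the P14 cluster of 51 cells (1.75 CPM, 0.0444 to 9.77). After thinning to 1000 UMIs *Bst2* and *Ifi27* were no longer past the limit.

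Macrophage-like cells had *Ifitm3* (3.06) and *Isg15* (2.41) past the limit, beside 2.92% of genes (2.21% lower). *Irf7* (2.63), *Rsad2* (3.29) and *Ifit1* (2.78) were higher in both P28 libraries, but the interval at P14 overlapped that of 1 of them, while *Bst2* (0.03), *Ifi27* (0.22) and *Ifit3* (-0.23) differed little between the means. *Ifit1* and *Ifitm3* were past it in ISC/HeC/OSC-like cells (2.85 and 2.63, beside 2.51% of genes, 4.31% lower), and *Ifitm3* was past it in RM-like cells (1.84, beside 0.949%, 2.04% lower) and in red blood cell-like cells (2.14, beside 2.48%), where *Bst2* was past it in the lower direction (21.7% of genes were). In IHC-like, B cell-like and Deiters' and pillar cell-like cells 0 members were past it, beside 4.27%, 1.7% and 1.9% of genes in the higher and 3.15%, 2.36% and 3.17% in the lower direction.

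**Figure D5:**
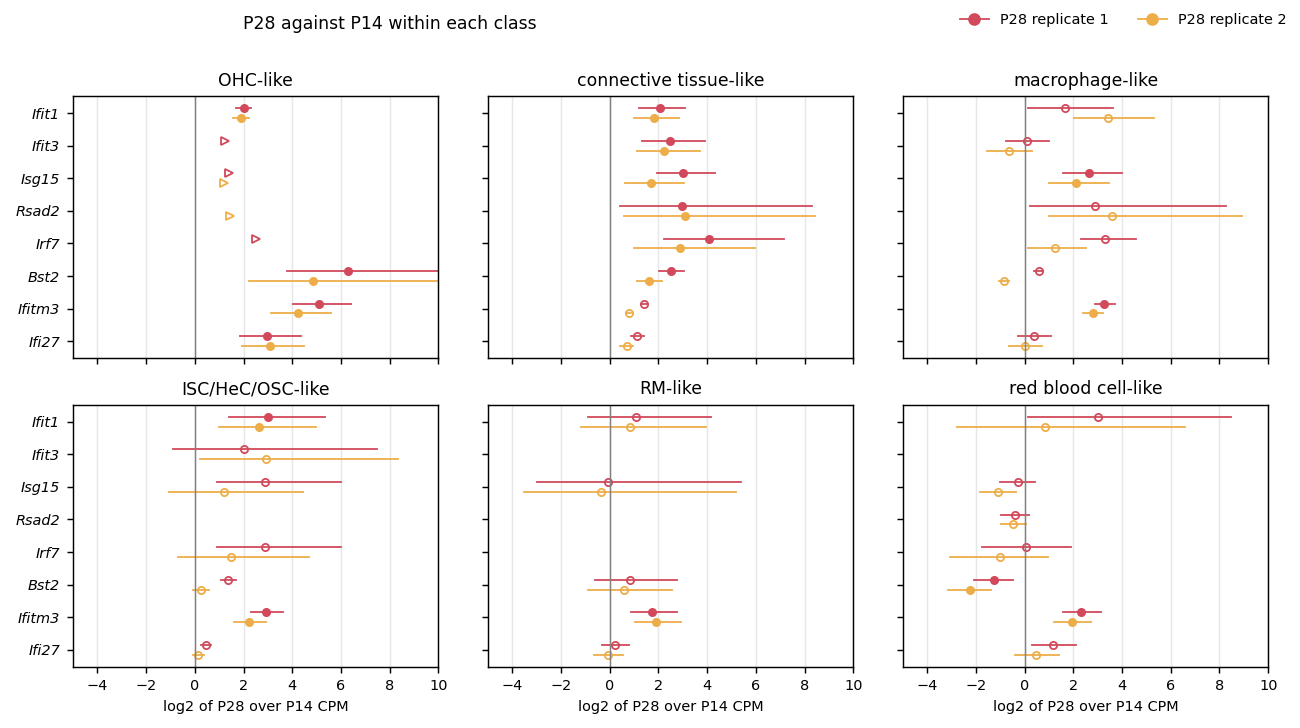
Log2 ratio of the level at P28 to that at P14 (x axis) for the 8 genes in 6 classes, 1 point per P28 library with 95% intervals for the ratio; filled points passed the limit, and triangles mark lower bounds where P14 had 0 UMIs. In OHC-like cells *Ifit1*, *Bst2*, *Ifitm3* and *Ifi27* were past the limit, and in connective tissue-like cells 6 of 8 genes.

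The rest of the pathway was followed with a list of 100 genes, of which 97 are among the genes counted (*Mx1*, *Mx2* and *Mb21d1* were not found under these symbols). The interferons on the list were almost not seen. Of 9 ligand genes, *Ifng* had 2 UMIs in P28 replicate 2, and *Ifnk* had 1 at P14 and 1 in P28 replicate 2. The other 7, *Ifnb1*, *Ifna1*, *Ifna2* and *Ifna4* among them, had 0 in all 3 libraries. Interferon genes outside these 9 were not looked up. A count of 0 allows up to 0.404, 0.122 and 0.129 CPM over all cells of a library. These ligands were picked out after their values were seen. In macrophage-like cells 84 genes of the list could be tested and 66 were higher and 0 lower (15% and 17.6% of all genes were), with a median log2 fold change of 1.92 beside -0.18 over all genes. The receptors gave 5 of 6 higher, the kinases and transcription factors 8 of 11, the sensors and adaptors 7 of 10, the brakes 1 of 5 and other interferon-stimulated genes 45 of 52.

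Of the list, the genes furthest above the other cells in macrophage-like cells were *Tlr7*, the endosomal sensor of single-stranded RNA, with 77.1, 50.5 and 45.2 CPM, 8.92 ± 0.46 higher on the log2 scale (edgeR, adjusted p = 1.57e-05), *Ifi204* (8.24), *Ifi207* (8.19), *Phf11b* (7.67) and *Irf5* (6.94), a transcription factor acting after Toll-like receptors. In OHC-like cells 77 could be tested, 55 were lower and 1 higher (31.6% and 25.9% of all genes were), with a median of -2.66 beside -0.06 over all genes. Of the sensors and adaptors 4 of 9 were lower, and of the other interferon-stimulated genes 40 of 46. *Ddx58* (RIG-I), a sensor of foreign RNA in the cytosol, was the 1 higher gene, with 25.1, 20.9 and 25.5 CPM and 0.56 ± 0.17 (adjusted p = 0.0452). *Ifi203*, *Ifi207*, *Ifi209* and *Oas1c* had 0 UMIs in OHC-like cells in all 3 libraries and *Trim30a* had 1. Against IHC-like cells 31 genes of the list could be tested in OHC-like cells, of which 4 were higher and 7 lower, beside 17.6% and 18.4% of all genes tested.

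By age in OHC-like cells, 46 genes of the list had 10 UMIs or more, 7 were past the limit with the higher level at P28 and 3 with the lower level, beside 6.99% and 3.02% of all genes of the class. *Ifitm1*, a relative of *Ifitm3*, went from 1 UMI (0.533 CPM) to 54.9 and 66.4 CPM, *Ifi27l2a* from 1 UMI to 41.9 and 35.7 CPM and *Ifitm2* from 4.26 to 32.2 and 48.1 CPM. *Lgals3bp* went from 3 UMIs (1.60 CPM) to 12.1 and 9.48 CPM, and *Trim25* from 0 UMIs to 8.37 and 13.1 CPM. These 5 were 1.60 CPM or less at P14 except *Ifitm2*, and *Ifitm1*, *Ifitm2* and *Ifi27l2a* were high in the other cells at P28 (461 and 506, 303 and 303, and 359 and 253 CPM). The 3 genes that were lower at P28 were *Samhd1*, which breaks down nucleotides (64.0 to 14.7 and 19.0 CPM), *Ifih1* (MDA5), a sensor of double-stranded RNA (22.9 to 5.02 and 8.02 CPM), and *Il10rb*, a receptor chain shared by type III interferon (94.9 to 32.2 and 33.5 CPM). In the other cells the same 3 genes differed less between the ages, with *Samhd1* at 36.4, 33.5 and 35.8 CPM, *Ifih1* at 14.8, 15.1 and 13.7 CPM and *Il10rb* at 72.9, 65.0 and 57.2 CPM.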

How the data were processed

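Per the file headers, the authors' Cell Ranger 5.0.1 (6.0.1 in the submitters' processing notes, with mm10) gave the deposited values, raw UMI counts per gene and barcode in barcodes called as cells, before any of the study's filters. All further steps started from these counts. Barcodes with 200 to 6000 genes and at most 15% mitochondrial UMIs were clustered in Seurat 5.3.0 (P14 alone, P28 libraries integrated, resolution 1) on variable genes without the members and the pathway list, and clusters were named from markers. Names were rebuilt and may differ from those of the study. Scrublet (scanpy 1.11.5) called 3, 0 and 1 cells, which means that it had not worked, so no doublets were removed, and an alternative left out the cells with the highest scores.

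UMIs were summed per class and library and tested in edgeR 4.0.16 (quasi-likelihood, TMM, default filter, a term for the library, adjusted p under 0.05). Both sums of a library come from the same suspension, so the library pairs them. The deviations of the paired sums correlated by 0.14 to 0.68. P-values measure how the difference between the paired sums varies over 3 pooled libraries, 1 at P14 and 2 at P28. A change of that difference with age is part of this spread. On simulated data with 200 genes changed, edgeR found 176 (88%) in macrophage-like cells, with 11 false calls, and 194 (97%) in OHC-like cells, with 5. The changed genes had 200 UMIs or more over the sums. All genes were given the same spread and libraries were not paired. These shares therefore do not give the power for genes with few UMIs in a class. Equal ages were simulated with counting error only, without spread between libraries. This put 1 of 12242 genes past the age limit in OHC-like cells and 6 of 11211 in macrophage-like cells. It cannot tell how often the spread between libraries puts a gene past the limit.

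Levels are CPM of the class in each library, and a count of 0 is bounded by 3 counts. The genes named are the 8 members and, from the list, the 5 furthest in each direction that passed (30 UMIs or more, 1 direction in 3 libraries), the 5 furthest past the age limit, and the 5 most like *Ifit1*, *Irf7* and *Ifitm3* among genes with 200 UMIs, of which 1 is not reported here. The members and lists were chosen with earlier results of these data known. Alternatives were DESeq2 1.42.0, no library term, other filters on low counts, leaving out 1 library at a time, other cell limits, resolution 2, all variable genes, thinning, other scalings and doublet scores. The exclusions of nucleus-like clusters and of single cells, and CPM without TMM factors, were added after the data were seen.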

Additional observations from a re-analysis of the deposited data

Results flagged for a closer look

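*Bst2* differed in opposite directions between the P14 and P28 libraries in different classes. In OHC-like cells the log2 ratio of P28 to P14 was 5.73, from 1 UMI at P14, with most P28 UMIs in the larger of 2 clusters. In connective tissue-like cells the ratio was 2.14, with both P28 libraries above P14. In red blood cell-like cells the ratio was -1.66, with both P28 libraries below P14 (152, 63.4 and 32.5 CPM), where 2.48% of genes were past the age limit in the higher and 21.7% in the lower direction. A single cell gave 24 of the 45 UMIs of *Bst2* in red blood cell-like cells at P14, and without the cell with the most UMIs in each library the ratio was -1.20 and no longer past the limit. The difference between classes was not tested, since P14 had 1 library.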

How the results depend on the processing

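No alternative turned the direction of a member called in both fits. With no replicate block (without the term for the library) 4 members passed in macrophage-like cells instead of 7, 0 instead of 1 against IHC-like cells and 14 instead of 30 in the other classes, and *Ifit3*, *Rsad2* and *Ifitm3* were lost in macrophage-like cells. In the other comparisons the block changed no count by over 1.5 times. With 10 UMIs or more in every sum, 3 of 4 tested passed in macrophage-like cells and 8 of 14 in the other classes, and OHC-like cells gave no value. Leaving out 1 library gave 4 to 8 (macrophage-like), 2 to 7 (OHC-like), 1 (against IHC-like) and 18 to 34 (other classes) members, and 23 to 30 pairs past the age limit instead of 17. Limits of 3000 genes and 15000 UMIs left 0 members against IHC-like cells and reversed *Ifitm3* (-0.63) and *Ifi27* (-0.56) there. *Ifit1* in macrophage-like cells reversed under those limits (-0.0177), with all variable genes (-0.0253), at resolution 2 (-0.065) and without P28 replicate 2 (-0.78, against 0.78 without P28 replicate 1). The log2 ratio of *Ifit1* between ages in OHC-like cells, 1.95, was 2.06 without mitochondrial, ribosomal protein and haemoglobin genes, 1.85 after thinning, 2.35 under the limits above, 2.04 without the highest doublet scores and 1.89 to 2.00 without a P28 library. Thinning left 9 pairs past the age limit, and shares of OHC-like cells with *Ifit1* at 500 UMIs were 2.17%, 10.3% and 8.87%. Of 427 values of 34 single results, 362 kept their call. A count of 0 in OHC-like cells at P14 bounds a level at 1.60 CPM only. The cause of these changes was not tested.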

Other observations

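A cluster led by *Pcdh17* and *Fabp7* (63, 116 and 114 cells) had 5 ISC/HeC/OSC markers raised at both ages. It was left unnamed, since a marker of another class was among its leading genes. The cluster led by *Tdrd12* and *Ucma*, with 5 such markers at P14 and 6 at P28, was left unnamed for the same reason. In the *Pcdh17* and *Fabp7* cluster *Ifit1* stood at 10.3, 92.7 and 41.7 CPM and *Isg15* at 16.5, 93.5 and 31.6 CPM, with *Ifit1* in 7.94%, 35.3% and 21.1% of the cells. In P28 replicate 1, 26 of its 41 cells with *Ifit1* (63.4%) also had a UMI of *Ifit3*, *Isg15*, *Rsad2* or *Irf7*, and 15 of the 75 without it. In P28 replicate 2 it was 9 of 24 (37.5%) and 11 of the 90 without it. In the cluster led by *Tdrd12* and *Ucma* *Ifit1* stood at 2.64, 64.0 and 12.4 CPM, and 28 of its 57 cells with *Ifit1* in P28 replicate 1 (49.1%) had at least 1 of the 4 genes, beside 8.93% of those without it. In P28 replicate 2 it was 3 of 15, beside 4.80%. Intermediate cell-like cells of P28 replicate 2 (149 cells) held *Ifitm3* at 1044 CPM, *Ifi27* at 610 CPM and *Ifit3* at 75.8 CPM.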
